A study of Mus musculus with 6 samples.

Results

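The 10 genes Saa3, Lcn2, Hp, S100a8, S100a9, Csf3r, Retnlg, Camp, Ngp and Ltf code for acute-phase proteins and for proteins that neutrophils carry. They were taken from the 36870 gene names on a mouse expression array by symbol, among the spots that are not controls. The set was put together because Saa3 was lower and S100a9 higher in the tamoxifen samples, so the ratios of the members are a description and carry no test. Of the 10 members, which 11 probes read, 9 are among the 20475 genes that passed the filter on dim probes, which asks that the tamoxifen or the oil channel be well above background on both arrays, in 2 or more of the 3 couples. Ngp did not pass.

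RNA came from lung tumors of C57BL/6J mice that carried a floxed Ror1 gene, the Cre recombinase CAG-CreER and the transgene SPC-hEGFRdel746-750. Every animal of both groups carried these alleles. The groups received tamoxifen or corn oil from 16 to 20 weeks of age, and tumors were collected at 20 weeks. The SPC promoter drives the mutant human EGFR in alveolar epithelium, while the CAG promoter is active in nearly all cell types, so tamoxifen can act on Ror1 in stromal and immune cells as well as in tumor cells. There were 3 tamoxifen and 3 oil samples, paired into 3 couples by number. A couple was put on 2 arrays, with the dyes Cy5 and Cy3 exchanged on the second. No corn oil group without the Cre, and no tamoxifen group without the floxed gene, was analysed here, so the effect of tamoxifen itself and that of Ror1 deletion cannot be told apart. Whether each number stands for an animal of its own is not in the labels, so the p-values and SDs measure only the spread between these samples, which may be technical.

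Neutrophils fill their granules in a fixed order as they mature in the bone marrow: the azurophil granules come first, the specific granules with lactoferrin, cathelicidin and lipocalin 2 later, while S100A8 and S100A9 accumulate in the cytosol. Acute-phase proteins are made mostly by the liver during inflammation, under IL-6, STAT3, C/EBP and NF-kB, but serum amyloid A3, lipocalin 2 and haptoglobin are also made outside the liver, by macrophages, adipocytes and epithelium. In lung tumors these transcripts can therefore come from infiltrating myeloid cells or from the epithelium. In bulk tissue, fewer cells of a type and less RNA per cell cannot be told apart.

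A probe is the only thing that each value reads, so the letters of the probes behind the main values come first. They are 60 bases long, with positions on mouse build mm9, and are shown because each stretch is what the named gene means on this array. The Saa3 probe lies at chr7:53967559-53967618 on the minus strand, the S100a8 probe at chr3:90473778-90473837 on the plus strand and an Lcn2 probe at chr2:32241037-32241281 on the minus strand. The span of the Lcn2 probe is longer than the probe itself, so its letters lie on either side of a gap in the genome. The S100a9 probe lies at chr3:90496573-90496632 on the minus strand, and its last 30 letters are given. Exon and UTR annotation on this build was not used here.
Saa3: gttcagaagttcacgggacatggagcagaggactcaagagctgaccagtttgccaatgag
S100a8: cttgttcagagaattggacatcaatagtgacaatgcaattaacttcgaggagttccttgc
Lcn2: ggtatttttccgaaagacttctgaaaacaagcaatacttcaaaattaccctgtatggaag
S100a9: ttgttctgggaaatgataagataaataata

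The promoters of Saa3, S100a8 and S100a9 are shown because Saa3 and S100a9 are the members that moved apart and S100a8 is the partner of S100a9. The 250 bases before the transcription start are printed 5′ to 3′ on the strand of the gene, from RefSeq on assembly GRCm38.p6, with matches to the C/EBP letters TTNNGNAA on either strand in capitals. They lie at chr7:46715677-46715926 (minus strand), chr3:90668821-90669070 (plus strand) and chr3:90695722-90695971 (minus strand).
Saa3: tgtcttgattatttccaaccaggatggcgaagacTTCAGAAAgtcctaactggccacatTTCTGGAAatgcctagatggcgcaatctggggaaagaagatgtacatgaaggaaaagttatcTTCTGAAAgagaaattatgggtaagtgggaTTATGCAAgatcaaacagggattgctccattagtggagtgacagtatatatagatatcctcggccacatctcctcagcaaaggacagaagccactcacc
S100a8: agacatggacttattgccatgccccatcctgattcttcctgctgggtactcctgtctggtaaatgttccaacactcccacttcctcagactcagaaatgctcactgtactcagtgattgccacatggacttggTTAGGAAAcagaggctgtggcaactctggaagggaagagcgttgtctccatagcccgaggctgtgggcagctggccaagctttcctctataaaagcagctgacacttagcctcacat
S100a9: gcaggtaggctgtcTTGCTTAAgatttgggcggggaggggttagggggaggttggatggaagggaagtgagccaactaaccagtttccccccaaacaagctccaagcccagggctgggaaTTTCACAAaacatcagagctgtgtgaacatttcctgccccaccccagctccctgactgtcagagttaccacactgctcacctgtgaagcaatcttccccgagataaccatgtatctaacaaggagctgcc

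Saa3 had 4 matches to the C/EBP letters, at 216, 191, 129 and 99 bases before the start, S100a9 had 2 and S100a8 had 1. The share of all promoters with more than 1 match was not counted, so whether 4 is many is not known here. Of the 9 members with a promoter in the table (all but Hp), 7 held at least 1 match within 300 bases, from 250 before to 50 after the start, and 40.7% of all 32851 windows of that length did so. The letters GAGGAA of PU.1, a factor of myeloid genes, were in the windows of 4 of the 9 members (Lcn2, S100a8, Csf3r and Ltf) and in 28.3% of all windows. The NF-kB motif was in those of Camp and Csf3r and in 20.7% of all windows. The STAT letters TTCNNNGAA were in 0 of the 9 and in 8.30% of all windows. Both strands were searched for each motif, and matches of different motifs may overlap. Such matches describe letters, and a window without them says only that these letters are not in it.

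Across the whole array, signal was well above background in 53.9% to 60.6% of the spots of a channel, and 0 spots were saturated. On the log2 ratios, arrays of the same couple with the dyes exchanged correlated at 0.76 to 0.79 over all genes tested, and different couples at -0.02 to 0.17. With limma, 0 of the 20475 genes passed an adjusted p of 0.05 (0% called), and 1436 had an unadjusted p under 0.05 (7.01%). When the 6 arrays were fitted singly with the couple as a random block (the replicate block), 56 genes passed, and 9 passed once a dye term was added, a setting chosen after seeing the data. Ror1 has 1 probe that was well above background in all 12 readings of 6 arrays, at chr4:100115077-100115136, which read 0.58, 0.44 and 0.18 (log2, tamoxifen over oil) in couples 1, 2 and 3 (mean 0.40 ± 0.21, SD, n = 3). Which part of Ror1 lies between the loxP sites was not known here, so this probe does not check the deletion.

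In what follows a log2 level is the signal of a sample after normalization, averaged over its 2 arrays, in arbitrary units that serve to compare samples for 1 probe. A log2 ratio is tamoxifen minus oil within a couple, so that -1 is a halving of the signal. Every mean is over 3 couples, with the SD between them.

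The 3 acute-phase members were all lower in the tamoxifen samples on average. Saa3, a serum amyloid A form made chiefly outside the liver, had a log2 level of 7.31, 7.56 and 7.55 in tamoxifen samples 1, 2 and 3, and of 8.12, 8.59 and 9.68 in the oil samples. The tamoxifen samples lay close together, all below the lowest oil sample, and the oil samples were spread over more than a log2 unit. The log2 ratio was -0.82, -1.03 and -2.13, with a mean of -1.33 ± 0.71 (SD, n = 3), or 2.51-fold lower. The raw signal ran from 2.53 to 18.0 times the local background. The size of the mean varied with the processing of background, as given in the last section. By couple, the signal was 1.76-fold, 2.04-fold and 4.39-fold lower, and the dyes made little difference: the arrays with tamoxifen in Cy5 gave -0.77, -1.02 and -2.19, and those with tamoxifen in Cy3 gave -0.86, -1.04 and -2.08. Only 17 of the 20475 genes tested had a lower mean. Saa3 is the member with the lowest mean ratio and the only one at least 2-fold lower on average.

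Lcn2, which binds the iron carriers of bacteria, had a log2 level of 15.33, 15.73 and 15.43 in the tamoxifen samples and of 15.88, 15.91 and 16.31 in the oil samples on its brighter probe, at chr2:32240199-32240258. The groups did not overlap, but the samples of couple 2 were only 0.18 apart. The couples gave a log2 ratio of -0.54, -0.18 and -0.88, with a mean of -0.53 ± 0.35 (SD, n = 3). The probe printed above read the same gene elsewhere and gave -0.43, -0.14 and -1.03, with a mean of -0.53 ± 0.45, so the probes ordered the couples alike. As for Saa3, couple 3 had the lowest ratio.

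Hp codes for haptoglobin, which binds free haemoglobin, and its probe lies at chr8:112099045-112099104. The log2 level was 12.86, 13.79 and 13.66 in the tamoxifen samples and 14.004, 13.99 and 13.67 in the oil samples. Here 1 tamoxifen sample, that of couple 1, stood below the others, and the groups overlapped. Its log2 ratio was -1.15, -0.20 and -0.01, with a mean of -0.45 ± 0.61 (SD, n = 3), and without couple 1 the mean was -0.10. In couple 3, where the ratios of Saa3 and Lcn2 were lowest, that of Hp was -0.08 with tamoxifen in Cy5 and 0.07 with it in Cy3. The acute-phase members thus had the same sign in every couple while their sizes were ordered differently, which the plot of levels by sample shows.

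**Figure D1:**
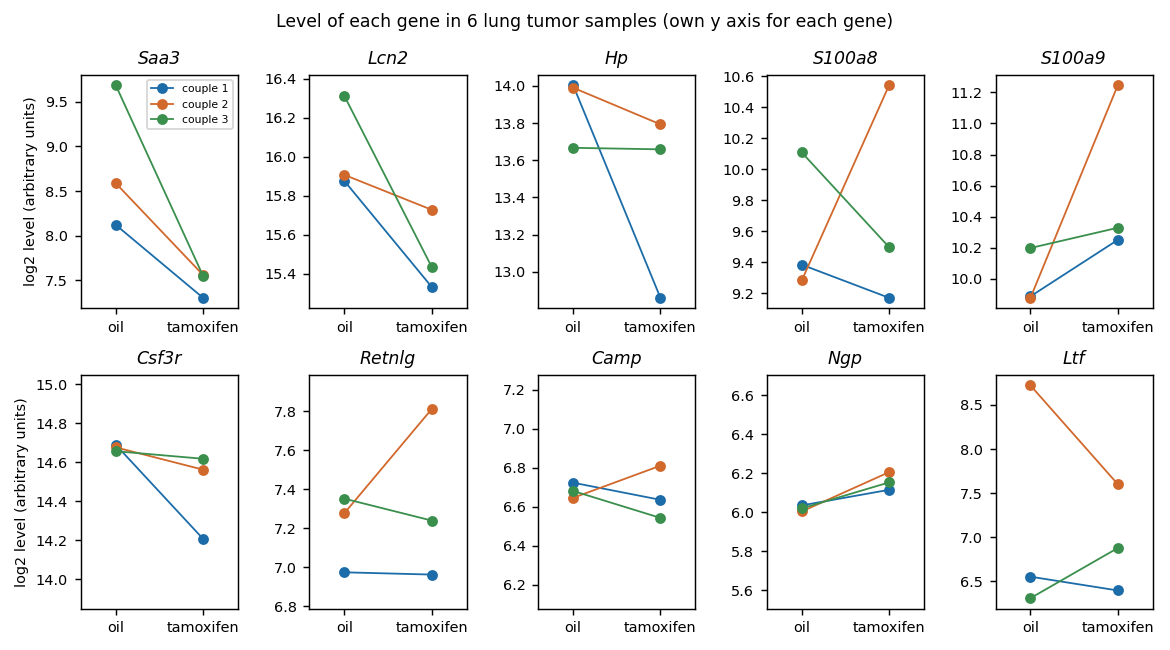
Log2 level of each of the 10 members (y axis, arbitrary units, a separate scale for each gene) in the oil and the tamoxifen sample of each couple, with a line joining the samples of a couple. All 3 lines fall for Saa3, Lcn2, Hp and Csf3r and rise for S100a9 and Ngp, and for the other 4 genes the lines go both ways; Ngp was well above background in 0 of 12 readings.

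S100a8 and S100a9 code for the subunits of calprotectin, a calcium-binding and zinc-binding complex that is abundant in neutrophils. S100a9 had a log2 level of 10.25, 11.25 and 10.33 in the tamoxifen samples and of 9.89, 9.88 and 10.20 in the oil samples. The groups did not overlap, but the gap between the lowest tamoxifen sample and the highest oil sample was that between 10.25 and 10.20. The log2 ratio was 0.36, 1.37 and 0.13, with a mean of 0.62 ± 0.66 (SD, n = 3), or 1.54-fold higher. It was above 0 on each of the 6 arrays, at 0.20, 1.26 and 0.08 where tamoxifen was the Cy5 sample and at 0.53, 1.48 and 0.18 where it was the Cy3 sample. Among the genes tested 96 had a higher mean. Without couple 2 the mean of S100a9 was 0.25.

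S100a8 did not follow S100a9 in each couple. Its log2 level was 9.17, 10.54 and 9.50 in the tamoxifen samples and 9.38, 9.28 and 10.11 in the oil samples, so the groups overlapped. The log2 ratio was -0.21, 1.26 and -0.61, with a mean of 0.15 ± 0.99 (SD, n = 3), and without couple 2 it was -0.41. Both genes had their highest ratio in couple 2, where the signal of S100a8 was 2.40-fold and that of S100a9 2.58-fold higher in the tamoxifen sample. The log2 ratio of S100a9 exceeded that of S100a8 by 0.58, 0.11 and 0.74 in the 3 couples (mean 0.48 ± 0.33, SD, n = 3), and did so on 6 of 6 arrays, by 0.02 to 0.77. The higher S100a9 and the lower Saa3 were thus largest in different couples, couple 2 for S100a9 and couple 3 for Saa3.

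Csf3r codes for the receptor of G-CSF, the growth factor of the neutrophil line. Its log2 level was 14.21, 14.56 and 14.62 in the tamoxifen samples and 14.69, 14.68 and 14.66 in the oil samples. The oil samples were nearly equal and lay above all tamoxifen samples, of which that of couple 1 was lowest. This gave a log2 ratio of -0.48, -0.11 and -0.04, with a mean of -0.21 ± 0.24 (SD, n = 3), and without couple 1 the mean was -0.077. It was -0.12 on the arrays with tamoxifen in Cy5 alone. What this probe reads is less plain than for the other members, because its letters run into a repeat. The 30 letters around that run are shown for the 3 of 56605 array probes that hold it, with the shared 18 letters, part of the mouse B1 repeat, in capitals.
Csf3r: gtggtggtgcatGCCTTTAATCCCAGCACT
TC1653005: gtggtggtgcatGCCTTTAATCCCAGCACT
Slc10a1: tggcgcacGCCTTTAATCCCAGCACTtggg

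The probe named TC1653005 (chr4:145718198-145718257) shared all 30 letters with that of Csf3r (chr4:125721478-125721537), and its log2 ratio was -0.50, -0.20 and -0.13. The probe of Slc10a1, a bile acid transporter of the liver, lies at chr12:82056539-82056598 and gave -0.59, -0.21 and -0.12. All 3 probes were well above background in 12 of 12 readings and had the lowest ratio in couple 1. Another Slc10a1 probe, without the run, was well above background in 1 of 12 readings, and gave -0.08, 0.25 and 0.03. These probes were chosen after their values were seen, and which transcripts gave the signal of the Csf3r probe was not tested.

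**Figure D2:**
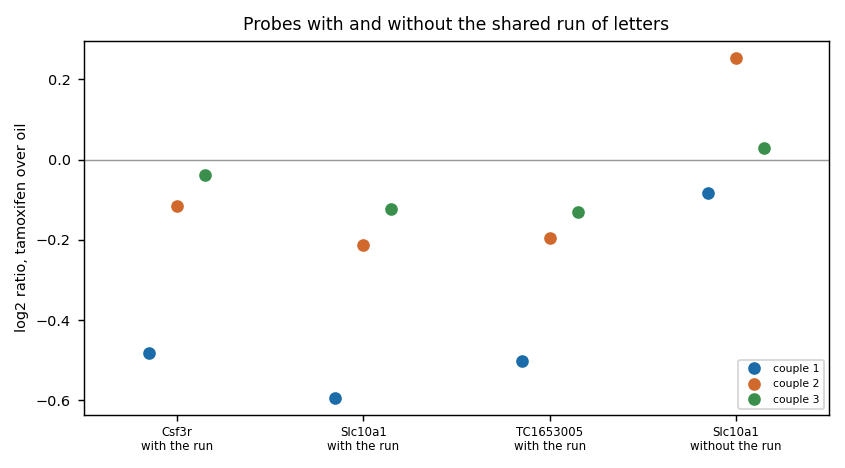
Log2 ratio of tamoxifen over oil (y axis) in each couple (points) for the 3 array probes that hold the 18 letters of the B1 repeat and for a Slc10a1 probe that does not (x axis). The 3 probes with the run share the order of the couples, with couple 1 lowest at -0.48 to -0.59. The probe without it also has couple 1 lowest, at -0.08. That probe was well above background in only 1 of 12 readings, so its order says little.

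The granule members other than Lcn2 were dim or mixed. Retnlg, a secreted protein of the resistin family, had a log2 level of 6.96, 7.81 and 7.24 in the tamoxifen samples and of 6.97, 7.28 and 7.35 in the oil samples (probe at chr16:48874468-48874527). The groups overlapped, and the tamoxifen sample of couple 2 was the highest of all, as it was for S100a8 and S100a9. In couples 1, 2 and 3 the ratio was -0.01, 0.53 and -0.11 on the log2 scale, with a mean of 0.14 ± 0.35 (SD, n = 3), and -0.062 without couple 2.

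Ltf codes for lactoferrin, an iron-binding protein of the specific granules that glands and airway epithelium also secrete. Its log2 level was 6.40, 7.60 and 6.88 in the tamoxifen samples and 6.55, 8.72 and 6.31 in the oil samples (probe at chr9:110942873-110942932). Both samples of couple 2 were higher than all the others, and the groups overlapped. The log2 ratio was -0.16, -1.12 and 0.57, with a mean of -0.24 ± 0.85 (SD, n = 3), and 0.21 without couple 2. Of 6 readings per group, 5 in tamoxifen and 4 in oil were well above background. In couple 2 Ltf was lower in the tamoxifen sample while Retnlg, S100a8 and S100a9 were higher there.

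Camp, the precursor of the cathelicidin peptide, had a log2 level of 6.64, 6.81 and 6.54 in the tamoxifen samples and of 6.72, 6.65 and 6.68 in the oil samples (probe at chr9:109749911-109749970). The 6 samples spanned 0.27, the groups overlapped, and the raw signal was only 1.46 to 2.51 times the local background. Its log2 ratio was -0.09, 0.17 and -0.14, with a mean of -0.02 ± 0.16 (SD, n = 3). Ngp, a granule protein of the cystatin-like fold, was not well above background in any of 12 readings at its probe, which spans chr9:110324266-110324814, and no fold is given for it. Of the granule members, then, Ngp was not flagged well above background in any reading, and Ltf was in only part of them. Lcn2, Retnlg and Camp were so flagged in all 12 readings, Camp with a raw signal close to background.

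**Figure D3:**
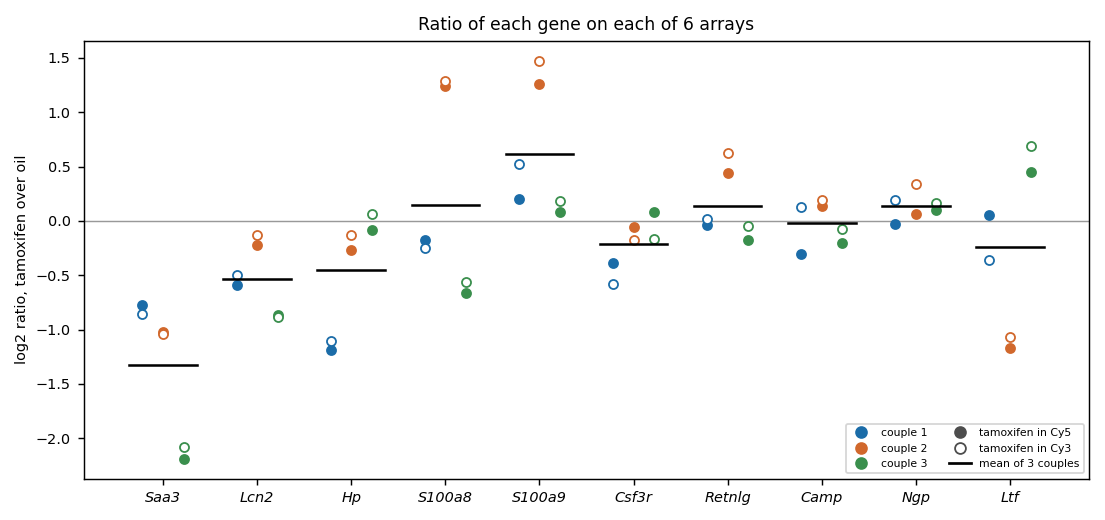
Log2 ratio of tamoxifen over oil (y axis) for each member (x axis) on each of the 6 arrays; colours mark the couples, filled points tamoxifen in Cy5, open points tamoxifen in Cy3, and bars the mean of 3 couples. For Saa3 all 6 points lie below 0, from -2.19 to -0.77, and for S100a9 all 6 lie above 0, while S100a8, Retnlg and Ltf have points on both sides with couple 2 farthest from the others.

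Counted together, 4 of the 10 members were lower in all 3 couples (Saa3, Lcn2, Hp and Csf3r), where 16.4% of all genes tested were. S100a9 and Ngp were higher in all 3 couples, where 13.8% were, and the other 4 had both signs. The levels of the groups did not overlap for Saa3, Lcn2 and Csf3r, with tamoxifen below oil (7.12% of genes tested), nor for S100a9, with tamoxifen above (5.2%). Those of Ngp did not overlap either, at a signal not well above background. By couple, 8, 5 and 7 of the 9 members that passed the filter were lower in couples 1, 2 and 3, where 51.5%, 50.2% and 51.1% of all genes tested were. Saa3, Lcn2 and S100a9 had 1 sign on all 6 arrays, as 13.3% of genes tested did. Saa3 was at least 1.5-fold lower with 1 sign in the couples, which 143 genes were (0.698%), and S100a9 at least 1.5-fold higher in that way, which 82 genes were (0.4%). As the members were chosen on this contrast, these counts are a description.

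The wider acute-phase list held 25 genes, of which 16 passed the filter, and 0 of them had a limma adjusted p under 0.05. Their mean ratio was below 0 for 12 and above 0 for 4, where 51.2% of all genes tested were below 0, and the list's median was -0.40, against -0.004 for all genes. With no filter on dim probes all 25 genes entered and the median was -0.068. By couple the median was -0.34, 0.11 and -0.72, so couple 3 was lowest, as for Saa3 and Lcn2, and couple 2 was above 0. Saa1, another serum amyloid A gene, gave -0.35, -0.34 and -0.73 (mean -0.47 ± 0.23, SD, n = 3, limma adjusted p = 0.69), with all tamoxifen samples below all oil samples (7.12% of genes tested). Its ratio was closer to 0 than that of Saa3 in each couple, and the mean difference was -0.85 ± 0.48. Saa2 was well above background in 0 of 12 readings.

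The other named acute-phase genes were of either sign. Orm1, an alpha-1-acid glycoprotein that carries lipids and drugs in plasma, gave -1.58, 0.90 and -1.89 (mean -0.86 ± 1.53, limma adjusted p = 0.76), and Orm2 gave -1.46, 0.84 and -1.86. In couple 2 these genes were higher in the tamoxifen sample, where Saa3 was lower. Serpina3n, a protease inhibitor, was below 0 in each couple, at -0.32, -0.22 and -0.30 (mean -0.28 ± 0.05, limma adjusted p = 0.69), as was complement C3, at -1.12, -0.07 and -0.31 (mean -0.50 ± 0.55, 0.69). Lbp, which binds bacterial lipopolysaccharide, was above 0 in each couple, at 0.54, 0.08 and 0.10 (mean 0.24 ± 0.26, limma adjusted p = 0.71). Lrg1 gave -0.07, 0.29 and 0.36 (mean 0.19 ± 0.23, limma adjusted p = 0.73). None of these passed the threshold.

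**Figure D4:**
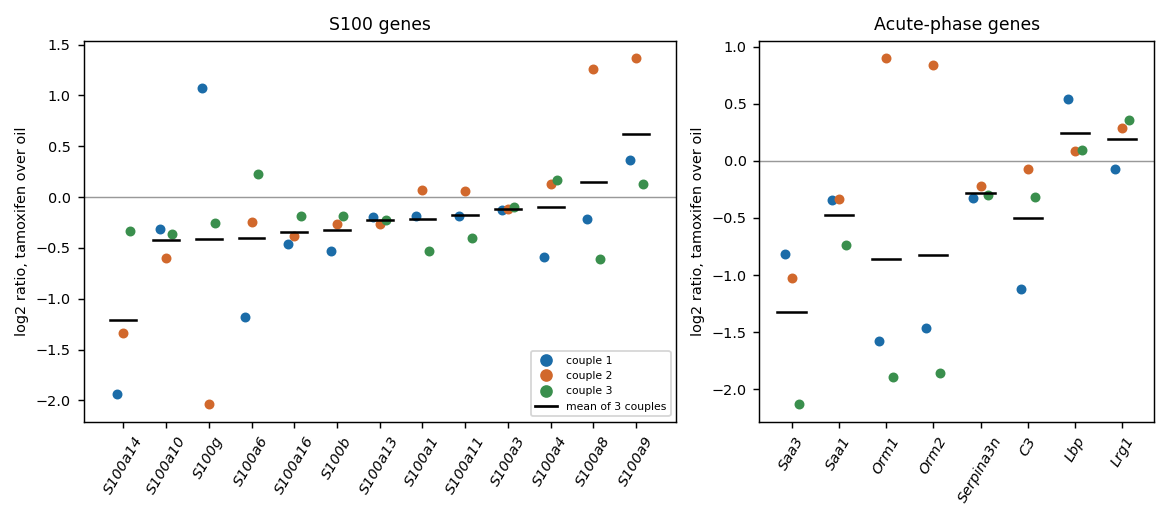
Log2 ratio of tamoxifen over oil (y axis) in each couple (points) and mean of 3 couples (bars) for the S100 genes that passed the filter and for 8 acute-phase genes (x axis). The means of the 11 other S100 genes all lie below 0 and those of S100a8 and S100a9 above it. S100a8 is above 0 in couple 2 alone. Saa3 and Saa1 lie below 0 in each couple, while Orm1 and Orm2 are above 0 in couple 2 alone.

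S100 genes other than S100a8 and S100a9 had means on the other side of 0. S100a8 was itself below 0 in couples 1 and 3, at -0.21 and -0.61, and S100a9 was chosen for being higher. Of 12 listed, 11 passed the filter, and all 11 had a mean below 0 (51.2% of all genes tested); 6 were lower in all 3 couples (16.4%) and 5 had an unadjusted p under 0.05 (7.01%), but 0 passed an adjusted p of 0.05 with limma. The median was -0.32, and by couple it was -0.31, -0.26 and -0.23. A median over genes tends to vary less between couples than a single gene does. The SDs of the single genes ran from 0.01 (S100a3) to 1.56 (S100g). S100a14, an epithelial S100 protein, gave -1.94, -1.34 and -0.34 (mean -1.20 ± 0.81, limma adjusted p = 0.69). S100a10, the partner of annexin A2, gave -0.31, -0.60 and -0.36 (mean -0.43 ± 0.15, limma adjusted p = 0.69). S100a3, S100g, S100a14 and S100a10 were named after their values were seen.

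Late granule and mature neutrophil genes showed no common direction over the couples. Of 26 listed, 19 passed the filter, 15 with a mean below 0 (51.2% of all genes tested) and 4 above. The median was -0.15, with medians of -0.33, -0.03 and 0.03 in couples 1, 2 and 3. Mmp8, a collagenase of the specific granules, gave -0.22, -0.86 and 0.50 (limma adjusted p = 0.88), the same signs by couple as Ltf. Ly6g, the surface protein by which mouse neutrophils are commonly told, gave -0.16, -0.03 and 0.24 (limma adjusted p = 0.98), and it was well above background in all 12 readings. Cd177 gave -0.65, 0.00 and -2.79 (limma adjusted p = 0.70) with 4 of 6 tamoxifen readings and 6 of 6 oil readings well above background. Itgam, an integrin chain of myeloid cells, had a mean of -0.18 ± 0.08 (0.69), Stfa2l1, a stefin, of -0.05 ± 0.28 (0.94), and Cxcr2, the chemokine receptor of neutrophils, of 0.24 ± 0.25 (0.70), with 4 tamoxifen readings and 1 oil reading well above background. Cxcr2 thus passed the filter only through the tamoxifen channel, where it was higher. So did Cxcr1, with 4 tamoxifen and 2 oil readings well above background. Stfa1, with 3 and 6, passed only through the oil channel. Mmp9 was well above background in 0 of 12 readings.

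Genes of the azurophil granules and of early neutrophils were mostly dim. Only 1 of the 8 listed passed the filter, Elane, the gene of neutrophil elastase, with a mean of -0.11 ± 0.10 (limma adjusted p = 0.79). Cebpe and Gfi1 were well above background in some readings of both groups but did not pass. Mpo, the gene of myeloperoxidase, was well above background in 1 tamoxifen reading and 4 oil readings and was not tested.

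Of the 10 neutrophil growth factors, chemoattractants and their receptors, 6 passed the filter, 2 with a mean above 0 and 4 below, and the median was -0.02. The 2 with a limma unadjusted p under 0.05 (7.01% of all genes tested) are named after their values were seen. Both were lower in each couple (16.4%) with no overlap of the levels (7.12%). Genes picked by a small p tend to show this, so it is no further result. Cxcl3, a ligand of CXCR2, gave -0.83, -0.53 and -0.11 (mean -0.49 ± 0.36, limma adjusted p = 0.69). Cxcl15, a chemokine of lung epithelium, gave -0.54, -0.03 and -0.71 (mean -0.43 ± 0.35, limma adjusted p = 0.69). Cxcl5, which binds CXCR2 and draws neutrophils, gave 2.21, 1.06 and 0.01 (mean 1.09 ± 1.10, limma adjusted p = 0.69), with all tamoxifen samples above all oil samples (5.2% of genes tested), but by almost nothing in couple 3. Cxcl1, another ligand of CXCR2, gave -0.23, 0.90 and 2.20 (mean 0.95 ± 1.21, limma adjusted p = 0.70). Cxcl5 and Cxcl1 thus had their highest ratios in different couples, and for neither was it couple 2, where S100a8 and S100a9 were highest. Csf3, which codes for G-CSF, was well above background in 0 of 12 readings, and Cxcl2 was so in 1 reading of each group.

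The inducers upstream of acute-phase genes were near 0 as a group. Of 22 genes of the IL-6, STAT3, C/EBP and NF-kB pathways 21 passed the filter, with 11 means above 0, 10 below and a median of 0.03. Cebpd, a C/EBP factor that acute inflammation induces, gave -0.36, -0.45 and -0.60 (mean -0.47 ± 0.12, SD, n = 3, limma adjusted p = 0.69), with no overlap of the groups. Its ratio was lowest in couple 3, as was that of Saa3. The other genes of the list with a limma unadjusted p under 0.05 (7.01% of all genes tested), named after their values were seen, were Cebpa and Rela. Cebpa, a related factor, gave -0.35, -0.25 and -0.53 (mean -0.38 ± 0.14, limma adjusted p = 0.69). Rela, an NF-kB subunit, gave 0.48, 0.10 and 0.37 (mean 0.31 ± 0.20, limma adjusted p = 0.69). As for Cebpd, the levels of the groups did not overlap for either gene. Of all genes tested, 7.12% did not overlap with tamoxifen below and 5.2% with tamoxifen above. Cebpb had a mean of 0.05 ± 0.23 (limma adjusted p = 0.93), Stat3 of 0.06 ± 0.17 (0.90), Socs3, a STAT3 target, of 0.12 ± 0.14 (0.79), and Nfkbiz, an NF-kB cofactor, of -0.11 ± 0.08 (0.78). The cytokines Il6 and Il1b both had a mean of 0.03 (0.95 and 0.96), and the receptor chain Osmr had one of -0.02 (0.98).

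**Figure D5:**
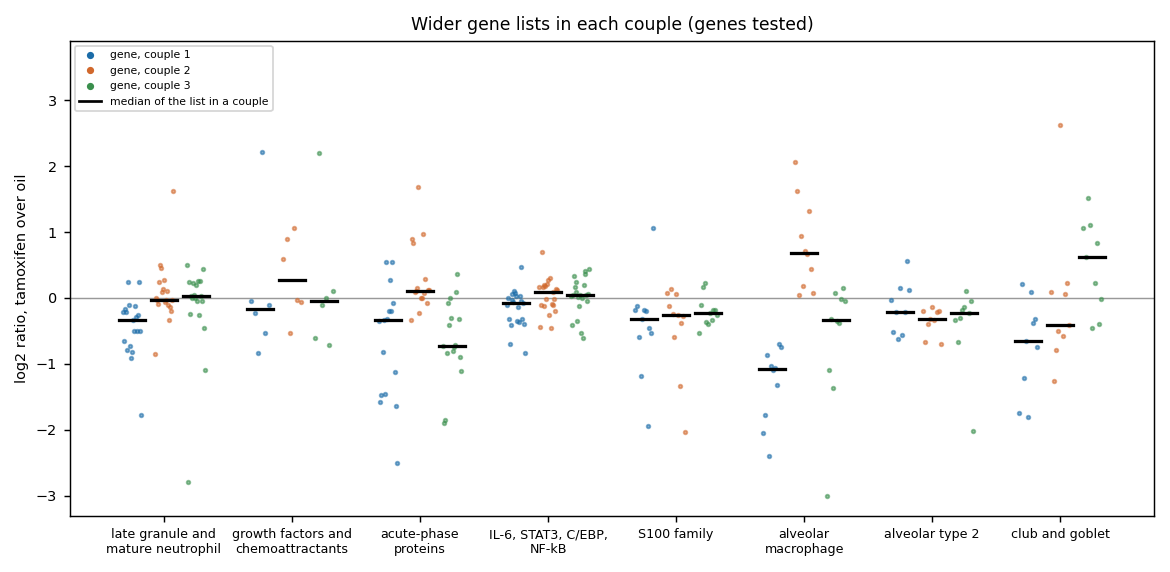
Log2 ratio of tamoxifen over oil (y axis) of each gene that passed the filter (points), by couple, with the median of the list in that couple (bars), for 8 lists of genes (x axis). The medians of the S100 and alveolar type 2 lists are below 0 in each couple, while that of the alveolar macrophage list goes from -1.08 in couple 1 to 0.69 in couple 2.

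Markers of other cells differed between the couples too. Of 11 alveolar macrophage markers 10 were found on the array and passed the filter, all with a mean below 0 (51.2% of all genes tested). However, 0 of them were lower in all 3 couples (16.4% of all genes tested). Their medians in couples 1, 2 and 3 were -1.08, 0.69 and -0.33. Couple 1, the lowest, is the one where Hp and Csf3r had their lowest ratios, and couple 2 the one where S100a8, S100a9 and Retnlg had their highest. The summed signal of these macrophage markers ranged from 63257 to 260086 in the tamoxifen samples and from 107855 to 192783 in the oil samples. That of the late neutrophil list ranged from 73238 to 212371 and from 103551 to 157777. Chi3l3 (now Chil3), which both lists hold and which was singled out after its values were seen, made up 45.9% to 77.9% of the neutrophil sum. Without it that sum was 38362 to 46986 in the tamoxifen and 36033 to 50033 in the oil samples, and the macrophage sum 29672 to 94700 and 54337 to 71039. The neutrophil sum still held Hdc, at a log2 level of 13.66 to 14.72 over the samples. As a sum follows its brightest probes, it says little about the other genes of the list. Hdc too was named after its values were seen. The erythroid list, with 4 of 6 genes tested, had medians of 0.19, 1.05 and -1.68, so the couples with the highest S100a9 and the lowest Saa3 ratios were at its ends. The part of macrophages or of blood in the results for the members was not tested.

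Alveolar type 2 markers, 9 of 9 tested, had medians of -0.21, -0.32 and -0.23 in the couples, and 8 of the 9 had a mean below 0 (51.2% of all genes tested). The median of their means, -0.26, depended on the dye: it was -0.17 on the arrays with tamoxifen in Cy5 and -0.45 on those with tamoxifen in Cy3, and -0.17 with median centring in place of loess. The summed signal was 592919 to 596162 in the tamoxifen samples against 708872 to 741632 in the oil samples. The epithelium that the SPC promoter serves was thus present in all 6 samples. The summed signal did not overlap between the groups, as 7.12% of single genes tested did not with tamoxifen below. A sum follows its brightest probes, and no such share was made for sums. Club and goblet markers, 9 of 9 tested, had medians of -0.66, -0.40 and 0.62, and monocyte and dendritic markers, 9 of 10 tested, of 0.01, -0.14 and -0.10. In couple 3, where the ratio of Saa3 was lowest, the club and goblet median was its highest. The part of epithelial cells in the values of Saa3, Lcn2 and Ltf was not tested.

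The genes whose ratios were most like those of Saa3 and S100a9 were found by the root mean square difference over the 3 couples, among 20466 genes that are not members. Nearest to Saa3 were Myo3b (0.36), Col6a2 (0.42), Ehd3 (0.42), Lpar3 (0.44) and Pmvk (0.51). Nearest to S100a9 were Serpinf1 (0.051), Tcf7l1 (0.15), Ptprz1 (0.16), Atp8a2 (0.18) and Itih4 (0.22). Serpinf1 gave 0.33, 1.32 and 0.07, close to S100a9 in each couple. Of the lists above, only Itih4 of the acute-phase list was among the 5 nearest to S100a9, with 0.55, 1.68 and 0.00. With 5 places among 20466 genes, the absence of other listed genes says little. The members, S100a8 and Retnlg among them, were not candidates. With 3 couples, such likeness rests on 3 values.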

How the data were processed

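Two-colour Agilent mouse arrays were read from 6 hybridisations on 1 slide in 1 scan, so no batch was tested. The deposited scanner files hold an intensity per spot (mean foreground and median local background), unnormalized, and, per the file headers, a log10 ratio of Cy5 over Cy3 made by the scanner software after background subtraction and dye normalization, with 0 or 1 flags. Agilent Feature Extraction 12.0.3.1 was used, per the submitters' processing notes. The deposited table holds log2 ratios of Cy5 over Cy3, settled by a slope of 3.32 against the log10 ratio of each array over 27619 probes. The column medians of couples 1, 2 and 3 were 0.14, -0.14 and -0.06 where tamoxifen was Cy5, and 0.13, -0.15 and -0.01 where oil was; scale, direction and centring (none added) are thereby known.

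In limma 3.58.1 (R 4.3.3), normexp with an offset of 50 was run on all 62976 spots, then loess array by array, with weight 0 for the 3671 control spots; these and outlying spots were left out. The brightest of a gene's probes stood for it (56605 probes, 36870 names). The filter asked for the tamoxifen or the oil channel to be well above background, on both arrays, in 2 or more couples. Both arrays of a couple were turned to tamoxifen over oil and averaged, which pairs samples as the arrays do and counts a dye swap once, and the 3 ratios were tested against 0, two-sided, with eBayes and Benjamini-Hochberg adjustment over 20475 genes. Levels came from each channel after loess and Aquantile, and 2 spots missing in a couple among genes past the filter took those genes out of the test. The script was tested on simulated data.

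The members and the lists were chosen with earlier results of these data known. Named are all members, a set of list genes chosen by role, and the 5 genes nearest to Saa3 and to S100a9. Symbols are those of the array, and all 10 members matched RefSeq by accession. The number of arrays limits the precision.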

Additional observations from a re-analysis of the deposited data

How the results depend on the processing

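Over 16 other settings Saa3, Lcn2, Hp, S100a9 and Csf3r kept their sign, Saa3 between -1.72 and -0.92. Many of these settings could not turn it. The block, dye-term, channels-apart and filter settings leave the ratio of a gene as it was. The scanner log ratio and the deposited table hold the same values. As these genes had 1 sign in all couples, leaving out a couple could not turn them either. The count of genes past the limma threshold was 0 except with the replicate block (56), the block with a dye term (9, chosen after seeing the data) and the channels taken apart (1), and 0 list genes were among them in any setting. Without a replicate the count stayed 0. With tamoxifen in Cy3 only, Camp turned to 0.083 and the IL-6, STAT3, C/EBP and NF-kB median to -0.019, and the latter was -0.025 with genes well above background on all 6 arrays. Leaving out 1 couple each gave -0.11 to 0.039 for Camp, -0.41 to 0.52 for S100a8, -0.062 to 0.26 for Retnlg and -0.64 to 0.21 for Ltf. The list medians that turned ran from -0.20 to 0.067 (late neutrophil), -0.16 to 0.096 (growth factors and chemoattractants), -0.075 to 0.063 (IL-6, STAT3, C/EBP and NF-kB), -0.69 to 0.13 (alveolar macrophage), -0.049 to 0.0054 (monocyte and dendritic), -0.52 to 0.30 (club and goblet) and -0.73 to 0.52 (erythroid). The cause was not tested. Ratios of Camp, Ltf and Ngp are limited by signal close to background. The raw signal of Saa3 also came near it, at 2.53 to 18.0 times the local background. Its mean ratio was -1.33 in the main setting and -1.39 without background subtraction. It was -1.52 with a normexp offset of 16 and -1.72 with the scanner log ratio. The size of the Saa3 ratio thus varied with these settings while its sign did not. How far low signal shaped that size was not tested.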
